A study of Mus musculus with 30 samples.

Results

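Levels of 10 genes of the inflammasome and of the interleukin-18 (IL-18) axis were described across a set of transplanted mouse melanomas: the sensors Nlrp3 and Aim2, the p200 family genes Mndal and Ifi204, the adaptor Pycard, the caspases Casp1 and Casp4, the cytokines Il1b and Il18, and the IL-18 inhibitor Il18bp. They were taken from the deposited table by gene symbol, and all 10 symbols were found among its 18975 genes. All 10 also exceeded 0 on the log2 scale in 3 or more libraries, the condition for entering the statistical model, which 15002 genes met. The genes were chosen by the levels and group differences that earlier work on these same libraries had shown, so their differences are given as a description, and their counts support nothing by themselves.

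An inflammasome is a protein platform that forms inside a cell when a sensor meets a danger signal. NLRP3 responds to disturbances such as ion loss, and AIM2 binds double-stranded DNA in the cytosol. Both recruit the adaptor ASC, the product of Pycard, which gathers caspase-1. Caspase-1 then cuts the precursors of IL-1β and IL-18 and opens gasdermin D pores, while mouse caspase-11, encoded by Casp4, senses bacterial lipopolysaccharide directly. IL-18 drives T cells and natural killer cells to make interferon-gamma (IFN-γ), and IL-18 binding protein, a secreted decoy, takes IL-18 out of circulation. AIM2, MNDAL and IFI204 belong to the p200 or PYHIN family, whose genes lie side by side on chromosome 1 and are textbook interferon targets. Cleavage is a protein event, and the RNA levels below do not measure it.

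The tumors were B16F10 melanomas, a C57BL/6 tumor line, grown under the skin of female C57BL/6 mice. The hosts were wild type (WT, genotype label ARE-del +/+) or heterozygous for ARE-del (HET, ARE-del +/-), an allele that removes an AU-rich, RNA-destabilizing element from the end of the IFN-γ gene. The injected line does not carry the allele, so within a tumor only host cells do. From day 7 the mice were injected 2 times a week with rat IgG2A as control, with anti-PD1 or agonist anti-CD40 at 0.25 mg, or with both (the combination). WT mice gave 5 IgG, 4 anti-PD1, 3 anti-CD40 and 3 combination libraries, and HET mice gave 4, 3, 4 and 4. By its title, the study asks how set levels of IFN-γ bear on tumor control and on the testing of immunotherapy in hosts prone to autoimmunity.

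Sequencing depth was 17.6 to 36.0 M reads per library (median 24.9 M), so that 1 read is worth 0.0276 to 0.0596 CPM (the reads of a gene scaled to one library size). The 7 melanocyte markers summed to between 19463 and 57652 CPM, so the markers of the labelled tumor were abundant in every library. The library of HET IgG replicate 2 stood apart, with 6.53% mitochondrial reads, 1554 genes without a read and the highest melanocyte sum. A read was worth 0.0596 CPM there, the most of any library, although its depth was not the lowest. Its CPM values, the melanocyte sum among them, are raised by this scaling. Summed keratinocyte markers (8 of 8 in the table) were highest in WT anti-CD40 replicate 2 at 2179 CPM, HET anti-CD40 replicate 4 at 963 CPM and HET anti-CD40 replicate 3 at 554 CPM. The description labels carry an L number that they do not explain: WT libraries have 5 or 6, and HET libraries have 6, 7 or 8. WT and HET share no L number under any of the 4 treatments, so in every comparison between genotypes L number and genotype cannot be told apart. In WT, all IgG libraries have 5 and all anti-CD40 and combination libraries have 6, so there L number and treatment cannot be told apart either, and the interactions carry both. In HET, IgG replicate 4 is the only control with L number 8, which all 4 combination libraries and 1 anti-CD40 library carry.

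The data are ordered here by what the proteins do, after a count over all 10. Casp1, Mndal, Ifi204, Aim2 and Il18bp were highest, by group mean, in the 2 HET groups that received anti-CD40, and Casp4 as well. Nlrp3, Pycard, Il1b and Il18 did not share that order. For Casp1, every one of the 8 HET libraries given anti-CD40, alone or in combination, held more than any of the 15 WT libraries. HET IgG replicate 4 (6.97 CPM) lay within the range of the 8, and these share no L number with WT. No share of all genes was taken for this pooled split or for those given below for single genes. In order of group mean, the ranges of neighbouring groups overlapped for all 10 genes, except that HET anti-CD40, the second for Casp1, stood clear of WT anti-CD40, the third. These are bulk samples, in which more cells of a type and more RNA per cell cannot be told apart.

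Against HET IgG, 2 of the 10 genes (Mndal and Il18bp) had all HET anti-CD40 libraries above all HET IgG libraries, beside 3.23% of all genes tested. In the HET combination the number was 5 (Mndal, Ifi204, Casp1, Casp4 and Il18bp), beside 3.63%. Both counts use the same 4 HET IgG libraries. Between genotypes under anti-CD40, 4 genes (Mndal, Ifi204, Casp1 and Il18bp) stood wholly higher in HET, beside 2.36% of genes. Under the combination 6 did (those 4, Aim2 and Casp4), beside 6.76%. One control library decided part of this: without HET IgG replicate 4 the counts against IgG were 5 (adding Aim2, Ifi204 and Casp1 to the first 2; 7.01% of genes) and 7 (adding Aim2 and Il1b; 7.55%). Without HET IgG replicate 2 they were 2 (8.41%) and 5 (6.31%). Leaving out replicate 4 also left no HET IgG library with L number 8, the number of all 4 HET combination libraries.

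Dropping HET anti-CD40 replicate 3, the highest library of 5 of the 10 genes among all 30, left 2 genes apart from IgG (3.41%) and 4 apart from WT (2.68%). Dropping HET combination replicate 3 left 5 (3.93%) and 6 (7.44%). Without the 3 libraries richest in keratinocyte markers, 2 genes stood wholly above IgG in HET anti-CD40 (4.37%) and 5 above WT anti-CD40 (13.9%), while Il1b stood wholly below it (14% of genes did). Under anti-CD40 that left only replicates 1 and 3 of WT and replicates 1 and 2 of HET. In groups so small, full separation was common among all genes.

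No gene of the 15002 was called in any of 13 comparisons by limma at a Benjamini-Hochberg adjusted p under 0.05 (0% in each), and limma-voom on the recovered reads called 0 as well. At an unadjusted p under 0.05, limma gave from 62 genes (WT combination against WT IgG; 54 by voom) to 2230 (HET anti-CD40 against HET IgG; 2172 by voom), and 1472 for the HET combination (1344 by voom). Of the 10 genes, 6 were among the higher ones in the first (Aim2, Mndal, Ifi204, Casp1, Casp4 and Il18bp; 8.12% of all genes were) and the same 6 in the second (6.46%). Between genotypes, 4 of 10 were higher in HET under anti-CD40 (3.17% of genes) and 6 of 10 under the combination (4.13%). The lowest limma adjusted p of any of the 10 in these 4 comparisons was 0.162 for Mndal and Il18bp in the first. One alternative gave other calls: with a weight estimated for each library, limma called 60 of all genes in the first comparison, among them Mndal, Casp1 and Il18bp (adjusted p = 0.0436, 0.0468 and 0.0436), and 407 in the HET combination, among them Aim2, Mndal, Casp1, Casp4 and Il18bp (adjusted p from 0.0187 to 0.0468). Whether each replicate is its own mouse is not in the labels, and the p-values speak only of the spread among these libraries.

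The median log2 difference of the 10 genes was 1.55 for HET anti-CD40 and 1.34 for the HET combination, against their shared IgG controls, where the median of all genes was -0.01 and -0.0033. In WT the same medians were 0.34 for anti-PD1, 0.31 for anti-CD40 and -0.03 for the combination, and HET anti-PD1 gave 0.01. None of the 10 was below an unadjusted p of 0.05 in WT anti-PD1, the WT combination or HET anti-PD1, nor between genotypes under IgG, where the median was -0.23. The interaction (HET treatment difference minus WT treatment difference) had a median of 1.02 for anti-CD40 and 1.63 for the combination. At an unadjusted p under 0.05 it was higher in HET for 2 genes under anti-CD40 (Mndal and Il18bp; 1.48% of all genes) and 6 under the combination (2.43%), and limma called none (lowest adjusted p of the 10, 0.99).

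**Figure D1:**
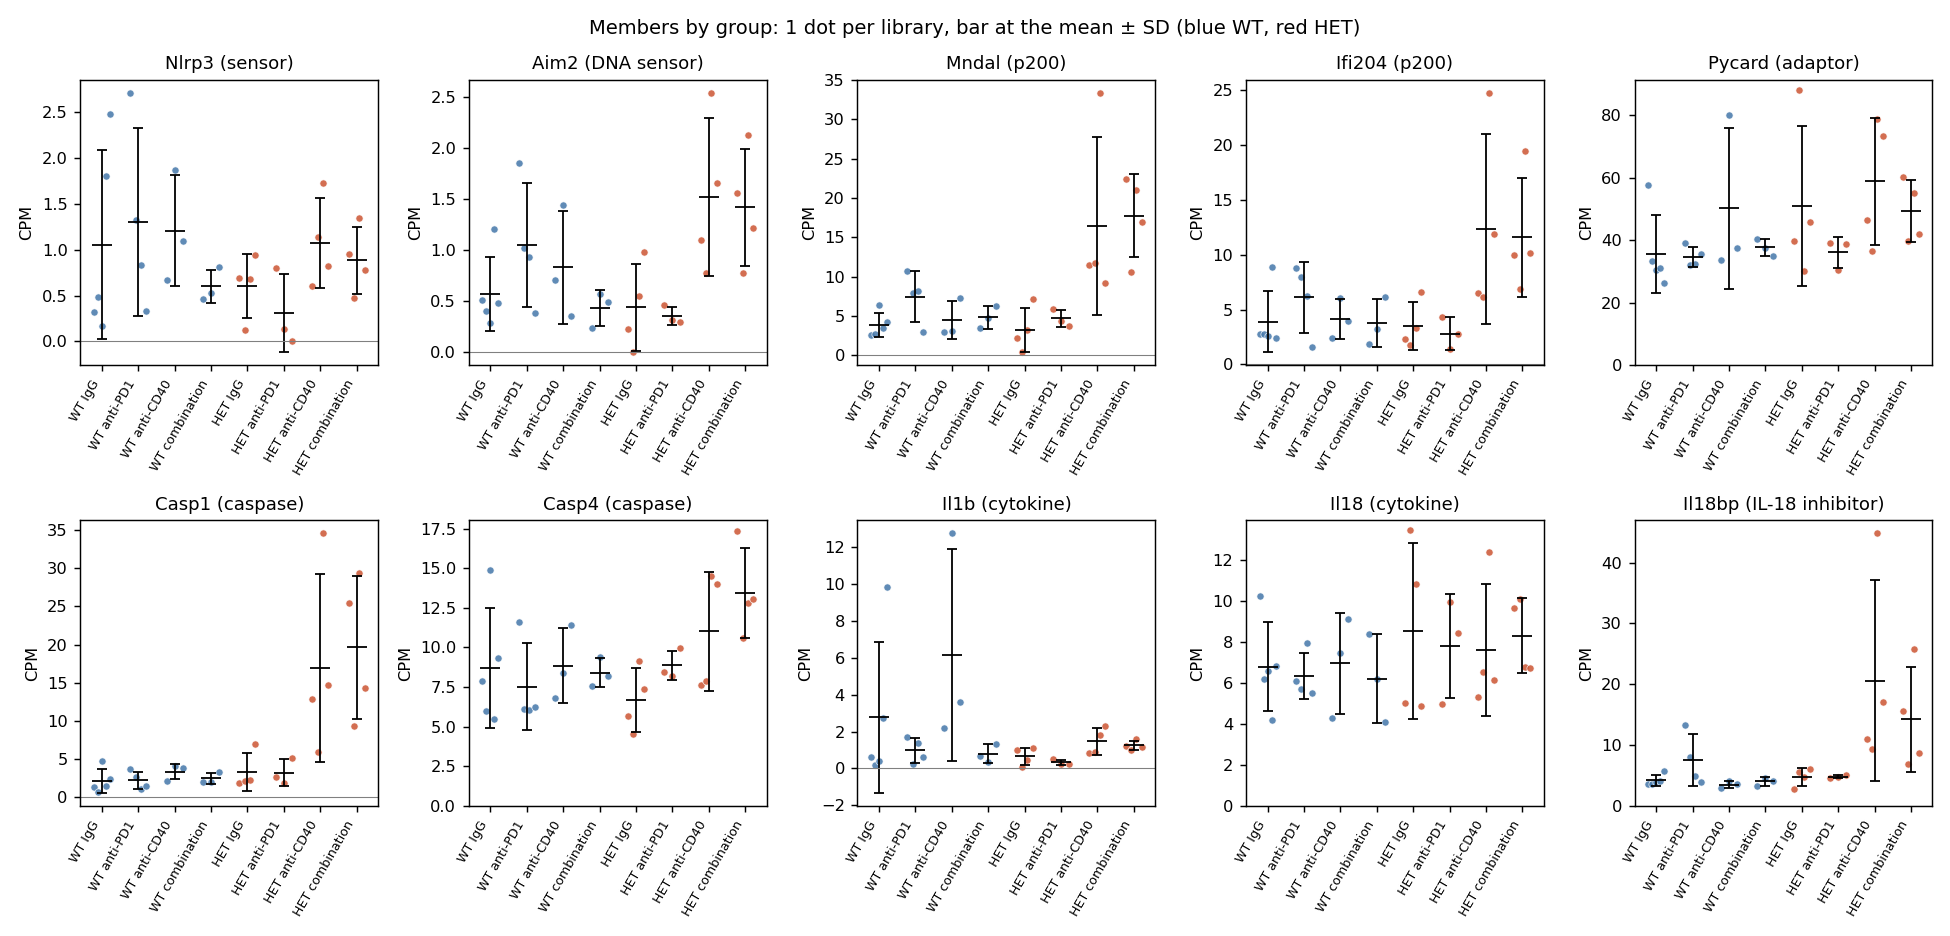
Level of each of the 10 genes in CPM (linear axis, own scale per panel) in the 8 groups, 1 dot per library, with a bar at the mean ± SD; blue is WT and red is HET. Casp1, Mndal, Ifi204, Aim2 and Il18bp have their highest means in the 2 HET groups given anti-CD40, while the Il18 panel shows no group apart and Il1b is highest in WT anti-CD40.

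The sensor Nlrp3 (ENSMUSG00000032691.10, chromosome 11, 59541568 to 59566956, plus strand) was among the scarcest of the 10, with 675 reads over all 30 libraries. Its WT IgG libraries held 0.322, 0.486, 0.170, 1.80 and 2.49 CPM, a span wider than the gap between any pair of group means. HET anti-CD40 libraries held 0.606, 1.14, 1.73 and 0.827 CPM, and HET IgG libraries 0.688, 0.119, 0.681 and 0.942 CPM. These groups overlapped, and the log2 difference was 0.88 ± 0.72 (SE). The lowest group was HET anti-PD1, with 0.801 and 0.133 CPM and no read in replicate 3, where 3 reads would be 0.111 CPM. Its log2 difference from WT anti-PD1 (2.72, 1.32, 0.839 and 0.333 CPM) was -2.16 ± 0.78, the only value of the 10 genes below an unadjusted p of 0.05 on the lower side of that comparison (1.21% of genes; limma adjusted p = 1.00). It was -1.35 without HET anti-PD1 replicate 3, the library with no read, and -0.07 with L number as a covariate. The second value rests on HET IgG replicate 1, the only HET library sharing an L number with WT. Every neighbouring pair of groups in the order of Nlrp3 means overlapped.

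The DNA sensor Aim2 (ENSMUSG00000037860.11, chromosome 1, 173350879 to 173466040, plus strand) had a similarly low level, 664 reads in all. HET anti-CD40 libraries held 1.10, 0.770, 2.54 and 1.65 CPM and HET combination libraries 1.56, 0.773, 2.12 and 1.22 CPM. HET IgG libraries held 0.229, 0, 0.545 and 0.980 CPM; the 0 of replicate 2 allows up to 0.179 CPM (3 reads), which covers counting error only. Replicate 4 of HET IgG is the control that lay within the range of the treated tumors. WT IgG libraries held 0.506, 0.398, 0.283, 1.20 and 0.476 CPM, WT anti-PD1 1.85, 1.02, 0.933 and 0.380, WT anti-CD40 0.708, 1.44 and 0.351, and the WT combination 0.233, 0.567 and 0.492. Aim2 was 2.03 ± 0.60 higher on the log2 scale in HET anti-CD40 and 1.98 ± 0.60 higher in the HET combination than in their shared IgG group, and 1.54 ± 0.65 higher in the HET than in the WT combination. With 1 added to each CPM before the logarithm, the values against IgG were 0.77 and 0.73, since a small level weighs less on that scale. Without HET IgG replicate 2, which had no Aim2 read, they were 1.31 and 1.26.

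The p200 gene Mndal (myeloid nuclear differentiation antigen like; ENSMUSG00000090272.3, chromosome 1, 173849126 to 173942491, minus strand) had the largest difference of the 10 from IgG in both HET groups given anti-CD40. HET anti-CD40 libraries held 11.4, 11.7, 33.4 and 9.20 CPM, and HET combination libraries 22.4, 10.6, 21.0 and 16.9 CPM. HET IgG libraries held 2.23, 0.417, 3.18 and 7.13 CPM, all below both treated groups. HET anti-PD1, with 5.91, 4.39 and 3.78 CPM, lay inside the IgG range. In WT the IgG libraries held 2.53, 2.70, 6.40, 3.46 and 4.29 CPM, anti-PD1 10.7, 7.98, 8.16 and 2.95, anti-CD40 2.997, 3.11 and 7.26, and the combination 3.45, 4.74 and 6.33. Only 1 of the 22 other libraries, WT anti-PD1 replicate 1, reached the lowest of the 8 HET libraries given anti-CD40.

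For Mndal the log2 difference from IgG was 2.65 ± 0.55 in HET anti-CD40 and 2.91 ± 0.55 under the HET combination, and 1.17% and 0.867% of all genes had a larger one. Under anti-CD40 the HET libraries were 1.78 ± 0.59 above WT, and under the combination 1.84 ± 0.59. When HET IgG replicate 4 was left out, limma called Mndal in both (adjusted p = 0.0378 for anti-CD40 and 0.0113 for the combination). When HET IgG replicate 2, its lowest library, was left out, the Mndal differences were 1.92 and 2.18 and limma called neither (adjusted p = 0.251 and 0.571). Leaving out replicate 4 left no HET IgG library with L number 8. For the combination, treatment and L number then cannot be told apart. Within L number 7, which holds 3 HET anti-CD40 libraries and 2 of HET IgG (replicate 2 among them, on which the value also rests), Mndal was 3.70 higher.

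The companion p200 gene Ifi204 (ENSMUSG00000073489.5, chromosome 1, 173747293 to 173766943, minus strand) held 6.52, 6.20, 24.8 and 11.9 CPM in HET anti-CD40 and 9.94, 6.85, 19.4 and 10.2 CPM in the HET combination. HET IgG libraries held 2.36, 1.73, 3.31 and 6.60 CPM and HET anti-PD1 libraries 4.31, 1.37 and 2.78 CPM. The combination stood clear of IgG, whereas replicate 4 of IgG overlapped anti-CD40. WT IgG libraries held 2.80, 2.79, 2.60, 8.86 and 2.43 CPM, WT anti-PD1 8.79, 7.94, 6.20 and 1.57, WT anti-CD40 2.37, 6.04 and 3.98, and the WT combination 1.91, 3.24 and 6.19. The log2 differences of Ifi204 from HET IgG were 1.74 ± 0.55 for anti-CD40 and 1.78 ± 0.55 for the combination. They were 0.51 and 0.70 with the mean of the myeloid markers as a covariate, a larger loss than Mndal showed (2.18 and 2.49).

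The promoter of Mndal is shown because its pattern over the 30 libraries was closest to that of its neighbour Ifi203 (Spearman rho 0.95), another p200 gene, and the windows at their starts are near copies. Windows of 250 bases before to 50 after an annotated start come from RefSeq on GRCm38.p6 and were found for 9 of the 10 genes (12 windows). The window of Mndal lies at chr1:173880138-173880437 and that of Ifi203 at chr1:173942443-173942742, both on the minus strand and printed 5′ to 3′. The Mndal gene at the position given above begins at 173942491, inside this Ifi203 window. The printed Mndal window therefore lies within that gene, and the windows need not be separate promoters of separate genes. Its bearing on the rho was not tested. Ifi203 has another annotated start, whose window (chr1:173942623-173942922) holds an NF-κB match and no ISRE match. Capitals mark the letters GAAANNGAAA, the paired repeat of an interferon-stimulated response element (ISRE), searched on both strands.
Mndal: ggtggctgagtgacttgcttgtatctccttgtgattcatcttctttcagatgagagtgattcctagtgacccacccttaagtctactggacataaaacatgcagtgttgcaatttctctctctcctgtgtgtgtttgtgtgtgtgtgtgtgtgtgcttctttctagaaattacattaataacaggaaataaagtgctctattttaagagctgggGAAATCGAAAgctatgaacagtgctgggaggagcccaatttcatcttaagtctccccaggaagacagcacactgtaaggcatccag
Ifi203: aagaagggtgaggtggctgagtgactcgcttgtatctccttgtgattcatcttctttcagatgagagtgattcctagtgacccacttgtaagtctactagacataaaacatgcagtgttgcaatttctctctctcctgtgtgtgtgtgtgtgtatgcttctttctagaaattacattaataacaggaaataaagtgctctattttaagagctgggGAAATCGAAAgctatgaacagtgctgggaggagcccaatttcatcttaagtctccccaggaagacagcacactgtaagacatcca

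The match reads GAAATCGAAA in both windows, from 36 to 27 bases before the start of Mndal and from 35 to 26 before that of Ifi203. The windows were identical at 282 of 289 aligned bases (97.6%). A second annotated start of Mndal had another match on the opposite strand, GAAAGAGAAA, from 54 to 45 bases before it. Of all 32851 promoter windows in the table, 3.44% held this motif. Such a match describes letters and is not a measured binding site. Near-identical sequence also bears on the counts. How reads shared by p200 genes were assigned is not given in the sources used here, so the division of reads between Mndal and Ifi203 is uncertain. Of the Mndal exon bases 4.27% are shared with other annotated exons, 118 bases with Gm38050 and 37 with Ifi203.

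The adaptor gene Pycard (ENSMUSG00000030793.3, chromosome 7, 127989708 to 127993867, minus strand) was the most abundant of the 10, at a mean of 11.6 CPM per kilobase of exon, against 0.223 for Nlrp3 and 0.242 for Aim2. Its HET IgG libraries held 39.9, 88.1, 30.01 and 45.9 CPM and its HET anti-CD40 libraries 46.6, 36.6, 78.8 and 73.3 CPM. These ranges overlapped, with log2 differences from IgG of 0.26 ± 0.29 for HET anti-CD40 and 0.05 ± 0.29 for the HET combination (95% intervals -0.35 to 0.86 and -0.56 to 0.65). The highest libraries were HET IgG replicate 2, then WT anti-CD40 replicate 2 (79.9 CPM) and HET anti-CD40 replicate 3 (78.8 CPM). HET IgG replicate 2 stood apart in quality and in what 1 read was worth. The other libraries named were rich in keratinocyte, myeloid (531 and 822 CPM) and T cell markers (4.02 and 14.6 CPM). Over the 30 libraries Pycard had a Spearman rho of 0.35 with the keratinocyte, 0.50 with the myeloid and 0.54 with the T cell sum. The part of these tissues was not tested. Part of the Pycard exons, 12.8%, lies opposite Gm45205, and without stated strandedness reads of the pair cannot be told apart.

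The caspase gene Casp1 (ENSMUSG00000025888.5, chromosome 9, 5298517 to 5307265, plus strand), which encodes the inflammasome protease, held 12.8, 5.83, 34.6 and 14.6 CPM in HET anti-CD40. It held 25.5, 9.25, 29.3 and 14.3 CPM in the HET combination. HET IgG libraries held 1.74, 2.09, 2.18 and 6.97 CPM and HET anti-PD1 libraries 2.56, 1.82 and 5.12 CPM. Replicate 4 of HET IgG is the sole library outside the 8 that reached their lowest value.

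In WT tumors Casp1 was between 0.663 and 4.64 CPM throughout: 1.24, 0.663, 4.64, 1.40 and 2.38 under IgG, 3.58, 2.55, 1.03 and 1.38 under anti-PD1, 2.12, 4.07 and 3.71 under anti-CD40, and 1.96, 1.99 and 3.23 under the combination. The log2 difference of Casp1 from HET IgG was 2.32 ± 0.55 for anti-CD40 and 2.66 ± 0.55 for the combination, and from WT IgG it was 0.89 ± 0.57 and 0.45 ± 0.57. The gap between genotypes was 2.11 ± 0.60 under anti-CD40 and 2.89 ± 0.60 under the combination; the second is the largest of the 10 in that comparison and was exceeded by 0.753% of genes. The difference of differences was 1.43 ± 0.79 for anti-CD40 and 2.21 ± 0.79 for the combination, not called by limma. With L number as a covariate the gap between genotypes was 1.33 and 1.49. These values do not separate genotype from L number. They rest on HET IgG replicate 1, the only HET library with an L number that WT libraries carry.

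Casp4 (ENSMUSG00000033538.9, chromosome 9, 5308828 to 5336783, plus strand) starts just beyond the end of Casp1 on the same strand, and its group means spanned 6.68 to 13.5 CPM. HET combination libraries held 17.4, 10.6, 12.8 and 13.1 CPM, above all 4 HET IgG libraries (5.70, 4.53, 9.13 and 7.35 CPM). HET anti-CD40 libraries held 7.65, 7.88, 14.5 and 14.03 CPM. Replicates 1 and 2 lay within the IgG range, while replicates 3 and 4 lay above it. Replicates 3 and 4 were the highest of their group in keratinocyte, myeloid (822 and 715 CPM) and T cell markers (14.6 and 4.87 CPM). The Casp4 log2 difference from IgG was 0.70 ± 0.29 in HET anti-CD40, or 0.26 without the 3 libraries richest in those markers, and 1.03 ± 0.29 in the HET combination. WT libraries ran from 5.51 to 14.9 CPM, the highest being IgG replicate 3, but the 3 WT combination libraries (7.59, 9.40 and 8.19 CPM) were all below the HET combination, with a log2 difference of 0.66 ± 0.31.

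Within a library the log2 ratio of Casp1 to Casp4, on the CPM scale and not corrected for length, averaged 0.40 ± 0.74 (SD, n = 4) in HET anti-CD40 and 0.42 ± 0.60 (SD, n = 4) in the HET combination. The other group means lay between -2.22 and -1.22. In HET anti-CD40 the ratio ran from -0.43 to 1.25, and the highest HET IgG library, replicate 4 at -0.08, overlapped it. Replicate 2 of the HET combination, at -0.20, lay below that control as well.

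The promoter windows of the neighbouring caspases are shown because these neighbours had log2 differences of unlike size. The window of Casp1 lies at chr9:5298267-5298566 and the first of 2 windows of Casp4 at chr9:5308599-5308898, both on the plus strand. Capitals mark matches to the NF-κB consensus, searched on both strands beside the ISRE letters and TTCNNNGAA, the core of a gamma-activated site (GAS).
Casp1: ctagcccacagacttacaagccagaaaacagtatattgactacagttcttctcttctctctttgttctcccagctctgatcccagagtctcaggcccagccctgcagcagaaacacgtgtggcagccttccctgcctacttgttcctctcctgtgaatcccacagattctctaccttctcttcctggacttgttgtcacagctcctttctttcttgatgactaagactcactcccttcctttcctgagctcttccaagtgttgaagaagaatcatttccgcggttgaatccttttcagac
Casp4: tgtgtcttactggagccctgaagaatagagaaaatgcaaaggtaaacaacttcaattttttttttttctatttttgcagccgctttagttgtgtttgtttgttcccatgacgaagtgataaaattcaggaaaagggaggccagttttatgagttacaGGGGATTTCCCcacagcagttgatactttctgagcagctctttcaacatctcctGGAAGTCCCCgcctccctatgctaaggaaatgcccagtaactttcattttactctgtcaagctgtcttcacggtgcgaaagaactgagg

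Casp4 had matches starting 93 and 92 bases before its start, which overlap, and 1 more that begins 39 bases before it. The Casp1 window held none of the 3 motifs in its 300 bases. Of all windows 8.46% held the NF-κB letters and 8.30% the GAS letters. Among the other genes, 1 Nlrp3 window had an NF-κB match, and the windows of Aim2, Pycard, Il1b, Il18 and Il18bp held none of the 3. Absence of these letters from so short a window says nothing about the factors.

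Il1b (ENSMUSG00000027398.9, chromosome 2, 129364570 to 129371139, minus strand), the precursor gene of the pyrogenic cytokine IL-1β, did not follow the caspases. WT anti-CD40 libraries held 2.16, 12.7 and 3.59 CPM, the highest group, and WT IgG libraries 0.643, 0.177, 0.396, 2.75 and 9.84 CPM. The ranges overlapped through replicates 4 and 5 of IgG. HET anti-CD40 libraries held 0.833, 0.917, 1.80 and 2.29 CPM, and HET IgG libraries 0.983, 0.0596, 0.454 and 1.09 CPM. The Il1b log2 difference from IgG was 1.98 ± 0.86 in WT anti-CD40, the only one of the 10 genes at an unadjusted p under 0.05 there (2.72% of genes were higher at that level; limma adjusted p = 0.621), and 1.36 ± 0.83 in HET anti-CD40. The first was 1.26 without WT anti-CD40 replicate 2, and in it treatment and L number cannot be told apart. The second was 0.70 without HET IgG replicate 2. Between genotypes under anti-CD40 the Il1b difference was -1.74 ± 0.90, or -1.02 without WT anti-CD40 replicate 2. Of its exon bases 1.31% lie opposite Il1bos.

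Neutrophil markers ran beside Il1b. Their sum (6 of 7 markers in the table) was highest in WT anti-CD40 replicate 2 at 224 CPM, the library with the most Il1b, and over the 30 libraries Il1b and that sum had a Spearman rho of 0.88. The gene most like Il1b in pattern was Il1r2, the decoy receptor for IL-1 (rho 0.92). The neutrophil sum ranged from 1.25 to 66.0 CPM in WT IgG, 10.9 to 224 in WT anti-CD40, 1.49 to 6.65 in HET IgG and 3.86 to 102 in HET anti-CD40. Its part in the Il1b values was not tested.

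Il18 (ENSMUSG00000039217.8, chromosome 9, 50554827 to 50581840, plus strand) had no group that stood apart. Its HET anti-CD40 libraries held 5.30, 6.56, 12.4 and 6.17 CPM, its HET combination libraries 9.66, 10.1, 6.80 and 6.72 CPM, and its HET IgG libraries 5.01, 13.5, 10.9 and 4.90 CPM. The IgG range enclosed both treated groups, with its top at replicate 2, the library where 1 read was worth the most CPM. Without that library its top was 10.9 CPM, below HET anti-CD40 replicate 3. Log2 differences from IgG were -0.11 ± 0.34 and 0.08 ± 0.34, with 95% intervals from -0.81 to 0.59 and from -0.62 to 0.77. Its 8 group means ran from 6.22 to 8.56 CPM, and over the 30 libraries its Spearman rho with the other 9 genes lay between -0.23 and 0.33.

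Il18bp (ENSMUSG00000070427.3, chromosome 7, 102014885 to 102018690, minus strand) held 10.9, 9.39, 44.8 and 17.1 CPM in HET anti-CD40 and 15.6, 6.82, 25.8 and 8.65 CPM in the HET combination. HET IgG libraries held 2.75, 5.55, 4.72 and 5.99 CPM and HET anti-PD1 libraries 4.62, 4.79 and 5.08 CPM. All 8 libraries of the treated groups were above all 7 of these. In WT, IgG libraries held 3.58, 3.54, 3.91, 4.16 and 5.71 CPM, anti-PD1 13.3, 8.01, 4.85 and 3.90, anti-CD40 2.87, 4.02 and 3.59, and the combination 3.26, 4.62 and 4.15. WT anti-PD1 replicates 1 and 2 were the 2 libraries outside the HET groups that reached their lowest level.

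For Il18bp the log2 difference from HET IgG was 1.86 ± 0.41 for anti-CD40 and 1.43 ± 0.41 for the combination, and from WT IgG it was -0.24 ± 0.43 and -0.05 ± 0.43. HET exceeded WT by 2.25 ± 0.45 under anti-CD40, the largest of the 10 there (0.753% of genes were higher), and by 1.63 ± 0.45 under the combination. With L number as a covariate the second was 0.59, a value that rests on HET IgG replicate 1, the only HET library sharing an L number with WT. In HET anti-CD40, leaving out replicate 3 gave 1.39 against IgG. Of the Il18bp exon bases 2.64% lie opposite Numa1.

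The ratio of inhibitor to cytokine therefore followed the inhibitor. The log2 ratio of Il18bp to Il18 within a library averaged 1.21 ± 0.57 (SD, n = 4) in HET anti-CD40, from 0.51 to 1.85, and 0.60 ± 1.02 (SD, n = 4) in the HET combination. HET IgG averaged -0.75 ± 0.72 (SD, n = 4) with a maximum of 0.29, below every HET anti-CD40 library. WT anti-CD40 averaged -0.92 ± 0.38 (SD, n = 3) and WT anti-PD1 0.10 ± 0.85 (SD, n = 4). The combination overlapped IgG through replicate 2.

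**Figure D2:**
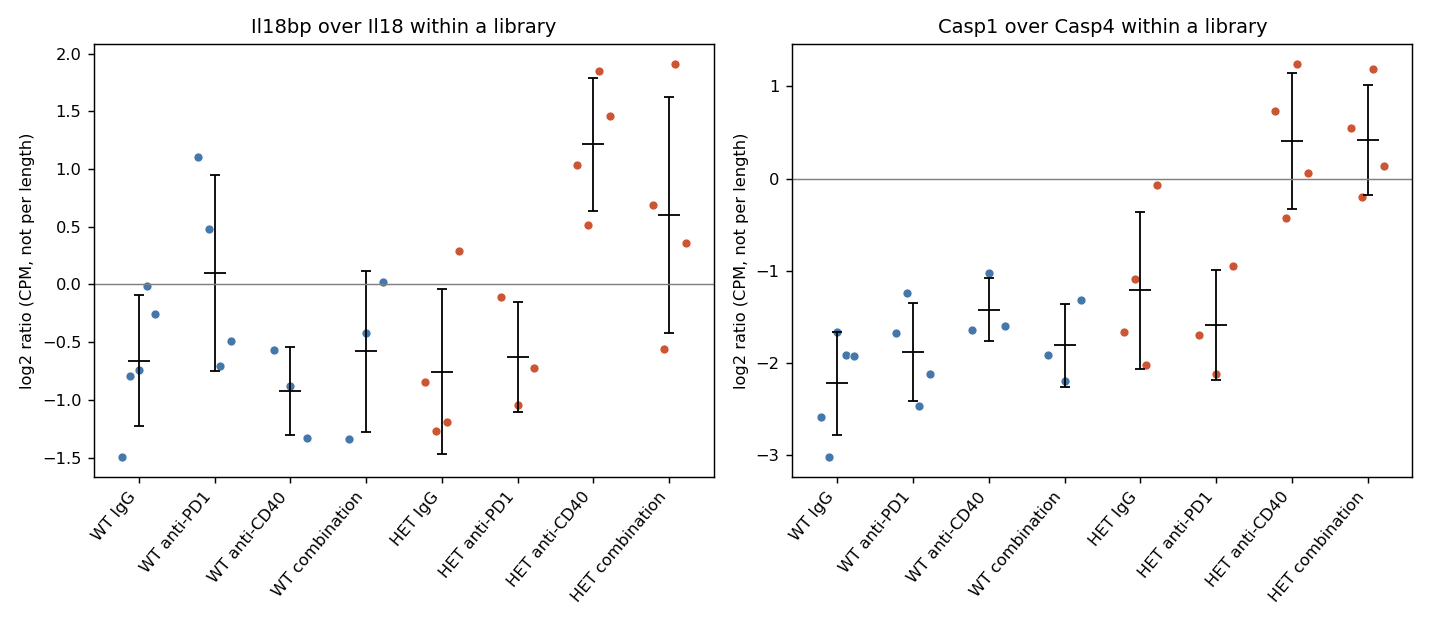
Log2 ratio of 2 genes within each library (CPM, not per length) for Il18bp over Il18 (left) and Casp1 over Casp4 (right), 1 dot per library, bar at the mean ± SD, blue WT and red HET. The 4 HET anti-CD40 libraries lie between 0.51 and 1.85 for Il18bp over Il18, above all HET IgG libraries, and both HET groups given anti-CD40 average about 0.40 for Casp1 over Casp4.

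**Figure D3:**
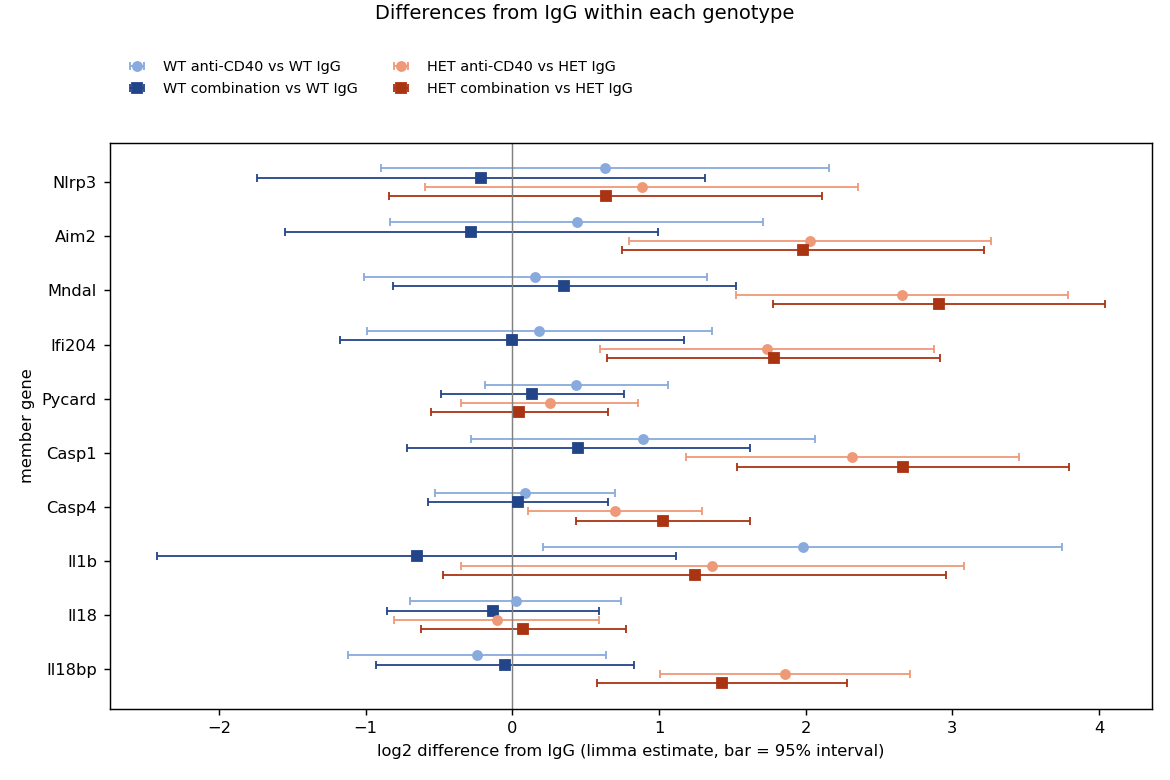
Limma log2 difference from IgG of the same genotype for each gene, with its 95% interval, for anti-CD40 (circles) and the combination (squares) in WT (blue) and HET (red); the 2 comparisons of a genotype share their IgG libraries. Mndal is at 2.65 and 2.91 and Casp1 at 2.32 and 2.66 in HET, while the intervals of Nlrp3, Pycard and Il18 include 0 in both genotypes. Those of Il1b include 0 in HET. In WT every interval includes 0 except that of Il1b under anti-CD40.

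Myeloid markers moved with these genes. The sum of 9 markers (Lyz2, Csf1r, Cd68, C1qa, C1qb, Fcgr1, Itgam, Cd14 and Tyrobp, of 10 listed; each had reads in every group) was 307 to 822 CPM in HET anti-CD40 and 275 to 790 in the HET combination. It was 124 to 221 CPM in HET IgG, 140 to 165 in HET anti-PD1, 45.2 to 288 in WT IgG, 76.8 to 553 in WT anti-PD1, 71.0 to 531 in WT anti-CD40 and 89.3 to 213 in the WT combination. Over the 30 libraries the Spearman rho with this sum was 0.92 for Ifi204, 0.87 for Aim2, 0.77 for Il18bp, 0.72 for Mndal and 0.67 for Casp1. It was 0.63 for Nlrp3, 0.50 for Pycard, 0.44 for Il1b, 0.39 for Casp4 and 0.06 for Il18. The tie was not particular to myeloid markers. With summed T cell markers the rho was 0.79 for Ifi204, 0.80 for Aim2, 0.67 for Il18bp, 0.70 for Mndal and 0.67 for Casp1. Nlrp3 had a rho of 0.72 with the neutrophil sum.

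Libraries with like myeloid sums held unlike levels of Casp1. WT anti-PD1 replicate 1, with a sum of 553 CPM, held 3.58 CPM of Casp1. WT anti-CD40 replicate 2, with 531 CPM, held 4.07 CPM. HET combination replicate 1, with 515 CPM, held 25.5 CPM. These libraries also differ in treatment and L number, and the WT ones differ from the HET one in genotype. With the mean of the myeloid markers as a covariate, the Casp1 log2 difference from HET IgG was 1.79 for anti-CD40 and 2.20 for the combination. That of Il18bp was 1.17 and 0.82, that of Aim2 0.97 and 1.05, and that of Nlrp3 took the other sign, at -0.33 and -0.43. The part of myeloid cells in these values was not tested.

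**Figure D4:**
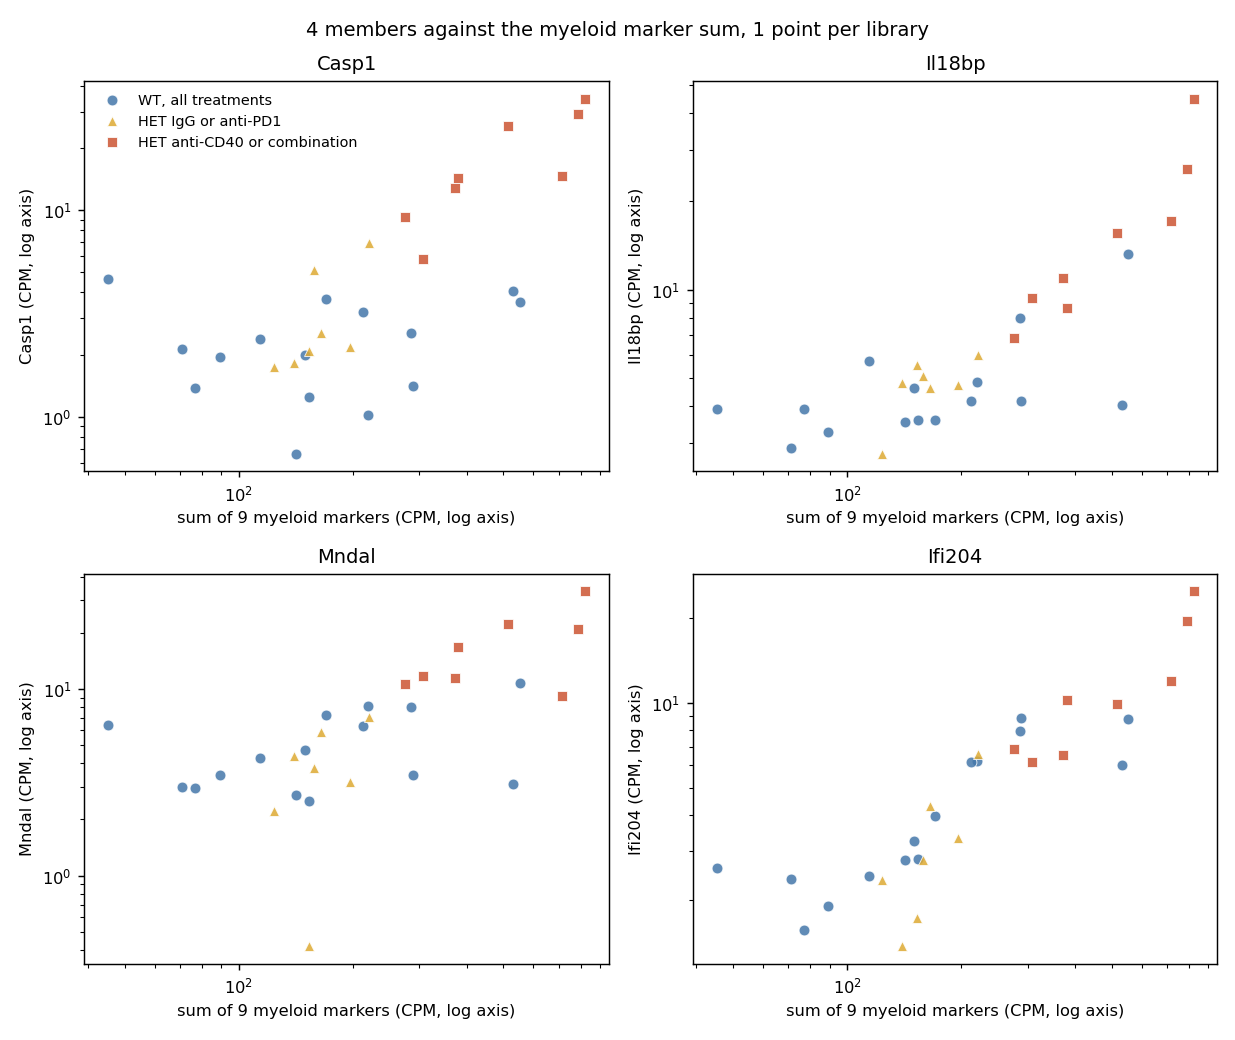
CPM of Casp1, Il18bp, Mndal and Ifi204 against the summed CPM of 9 myeloid markers (both axes log), 1 point per library: WT circles, HET IgG or anti-PD1 triangles, HET anti-CD40 or combination squares. The WT libraries with sums of 553 and 531 CPM hold 3.58 and 4.07 CPM of Casp1, below all 8 squares, while for Ifi204 the squares lie along the same course as the other points (rho 0.92 over 30 libraries).

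Other tissues also varied with treatment. T cell markers (6 of 6) summed to 1.58 to 14.6 CPM in HET anti-CD40 and 1.60 to 6.05 in the HET combination, against 0.119 to 0.792 in HET IgG. Adipocyte markers (4 of 4) summed to 52.4 to 132 CPM and 61.9 to 165 CPM in these treated groups and 23.9 to 41.8 CPM in HET IgG, and dendritic cell markers (6 of 6) to 15.03 to 22.6 CPM, 11.4 to 25.7 CPM and 7.57 to 13.9 CPM. In WT, T cell sums reached 4.28 CPM under anti-PD1 and 4.02 under anti-CD40, against 1.15 under IgG and 1.27 under the combination. Only 2 of the 6 T cell markers entered the model. Adipocyte sums reached 97.0 CPM and dendritic sums 18.1 CPM in WT anti-PD1. The part of T cell, adipocyte and dendritic cell markers in the values of the 10 genes was not tested. Skeletal muscle markers (6 of 6) summed to 26.5 to 454 CPM in HET anti-CD40, 48.0 to 238 CPM in the HET combination and 3.80 to 234 CPM in HET IgG. With keratinocyte and muscle marker means as covariates, Casp1 was 1.36 above HET IgG in anti-CD40 and 1.76 in the combination, Mndal 2.16 and 2.51, Il18bp 1.18 and 0.77, and Ifi204 0.99 and 1.09.

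Of the other p200 genes, 7 of 16 listed were in the table and all 7 entered the model. Each was higher in HET anti-CD40 than in HET IgG, 6 at an unadjusted p under 0.05 (8.12% of all genes) and 0 called by limma, with a median log2 difference of 1.87. In the HET combination 7 were, with a median of 2.36 (6.46%). Ifi203, with the highest mean log2 CPM of the list (not per length), was 1.87 ± 0.51 and 2.34 ± 0.51 higher, Mnda 2.56 ± 0.68 and 2.36 ± 0.68, Pyhin1 2.37 ± 0.81 and 2.63 ± 0.81, and AI607873 1.11 ± 0.48 and 1.07 ± 0.48. In WT anti-PD1 the median of the 7 was 1.14. Shared sequence within the family leaves the division between its genes uncertain.

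**Figure D5:**
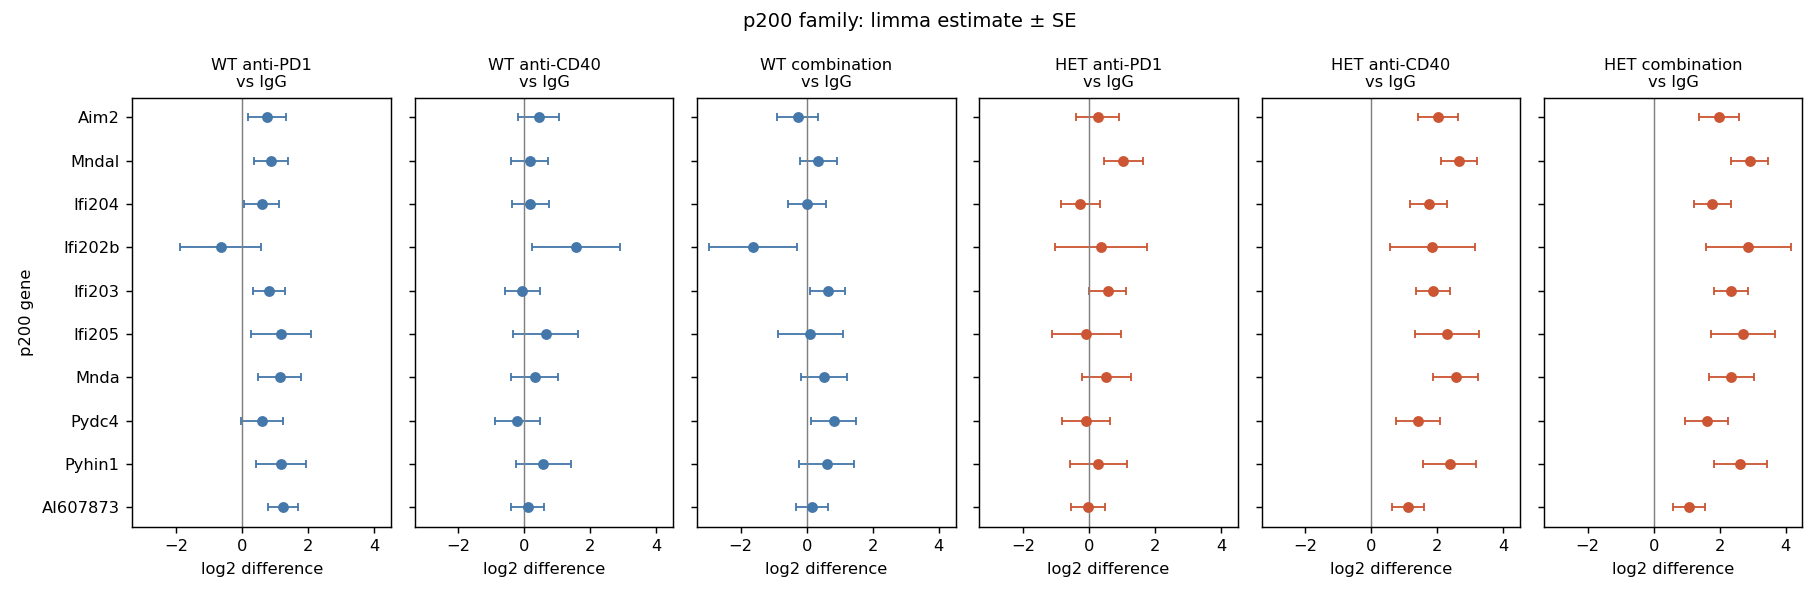
Limma log2 difference from IgG of the same genotype, ± SE, for 10 p200 genes (3 of the 10 described genes and 7 others) under each treatment, WT in blue and HET in red. All 10 lie above 0 in HET anti-CD40 and the HET combination, with none called, and Ifi202b has the widest errors.

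Further inflammasome components behaved unevenly. Of 20 listed, 17 were in the table and 16 entered the model, with a median log2 difference from HET IgG of 0.30 for anti-CD40 and 0.17 for the combination. At an unadjusted p under 0.05, 4 of the 16 were higher in the first (8.12% of all genes were) and 5 in the second (6.46%), and limma called 0. The 4 with the highest mean log2 CPM lay near 0: Txnip, which binds thioredoxin and NLRP3, was at 0.10 ± 0.30 and 0.19 ± 0.30, Ninj1, which ruptures the membrane of dying cells, at 0.08 ± 0.35 and -0.24 ± 0.35, Nek7, an NLRP3 partner, at -0.22 ± 0.19 and -0.05 ± 0.19, and the caspase gene Casp8 at -0.21 ± 0.16 and -0.12 ± 0.16. Chosen after their values were seen, Gsdmd, the pore-forming substrate of caspase-1, was at 1.30 ± 0.35 and 1.34 ± 0.35, and the nucleic acid sensor Zbp1 at 3.07 ± 0.79 and 2.84 ± 0.79.

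Ligands, receptors and signal proteins of IL-1 and IL-18 (15 of 20 in the table, 14 in the model) had medians of 0.75 and 0.74 against HET IgG, with 4 of 14 higher at an unadjusted p under 0.05 in each (8.12% and 6.46% of all genes) and 0 called by limma. Those with the highest mean log2 CPM were the receptor subunit Il1rap at -0.44 ± 0.25 and -0.34 ± 0.25 and the signalling kinases Irak1 (-0.23 ± 0.14 and -0.15 ± 0.14), Irak4 (-0.18 ± 0.18 and 0.01 ± 0.18) and Irak2 (0.46 ± 0.20 and 0.27 ± 0.20). Of 20 genes of the IFN-γ response, 18 were higher in each HET group at an unadjusted p under 0.05 (8.12% and 6.46% of all genes were), with 0 called by limma and medians of 2.01 and 1.81. Among them the GTPase gene Irgm1 was at 1.22 ± 0.45 and 1.13 ± 0.45, the peptide transporter gene Tap1 at 1.75 ± 0.51 and 1.49 ± 0.51, and Nlrc5, an activator of class I genes, at 1.89 ± 0.54 and 1.88 ± 0.54. Between genotypes, 18 of the 20 were higher in HET under anti-CD40 at an unadjusted p under 0.05 (3.17% of all genes) and 14 under the combination (4.13%).

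Genes with the most similar pattern were sought outside the 10 by Spearman correlation over the 30 libraries, which share depth and tissue content. For Casp1 the nearest was Ifi47 (rho 0.92), an IFN-γ-induced GTPase gene. For Casp4 it was the ubiquitin-like Isg15 (0.82), for Il18bp the integrin gene Itgax (0.89), for Ifi204 the p200 gene Pyhin1 (0.94), and for Aim2 Gpx3 (0.91). For Nlrp3 it was the lipopolysaccharide co-receptor gene Cd14 (0.83), for Pycard Rps27l (0.90) and for Il18 Pts (0.87). Among the 10 themselves, the closest pair was Aim2 with Ifi204 (rho 0.89), then Mndal with Il18bp (0.80), and the median over the 45 pairs was 0.38.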

How the data were processed

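Bulk RNA-seq libraries of 30 B16F10 tumors in 8 groups were read from the authors' deposited table of log2 CPM values for 18975 genes. The submitters' processing notes, a list that gives no order, name STAR, edgeR and mm10 for the authors' own steps, without versions; how shared reads were assigned is not given in the sources used here. All deposited values gave whole reads within 0.01 reads, with an implied prior of 1.94 reads. CPM values in the text were recovered from them, so a fold change of a low gene on the deposited log2 scale is understated.

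Differences were fitted with limma 3.58.1 (intensity trend, R 4.3.3) on all 30 libraries with 8 group means, for the 15002 genes above a log2 value of 0 in at least 3 libraries. Benjamini-Hochberg adjustment ran over all genes kept in each of 13 comparisons. Because the table holds log2 values, no count model was used; limma-voom on the recovered reads was an alternative. The script was tested on simulated data.

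The 10 genes and all gene lists were chosen with earlier results of these data known. Named besides them are the 4 genes of each pathway list with the highest mean log2 CPM and the gene outside the 10 nearest to each in Spearman correlation. Gsdmd and Zbp1 fall outside this rule and were chosen after their values were seen. One gene that the rule names is not reported here. Gene positions are from GENCODE vM21 (mm10), which held 18837 of the gene identifiers, and promoter windows from RefSeq (GRCm38.p6). Python 3.11.15 with pandas 2.3.3, numpy 2.4.6 and matplotlib 3.10.9 was used. Intervals and floors from reads cover counting error only.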

Additional observations from a re-analysis of the deposited data

Results flagged for a closer look

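In 3 of 50 tests of a gene within a group of 4 or 5 libraries, 1 library stood far above the rest; chance gives about 1 in 20. Ifi204 was at 8.86 CPM in WT IgG replicate 4, where the next library had 2.80 CPM. Casp1 was at 6.97 CPM in HET IgG replicate 4, where the next had 2.18 CPM, and this library is the control that lay within the range of the treated HET tumors. Casp4 was at 11.6 CPM in WT anti-PD1 replicate 1, where the next had 6.27 CPM.

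In 1 of 30 gene and treatment pairs, the treated libraries of the genotypes lay on opposite sides of their IgG means. Every HET treated library was on one side of the HET IgG mean, and every WT treated library on the other side of the WT IgG mean. For Il18bp, the log2 difference of anti-CD40 from IgG was 1.86 in HET and -0.24 in WT. The difference between them was 2.10, which limma did not call (adjusted p = 1.00).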

How the results depend on the processing

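In the fit as described, limma called 0 genes in all 13 comparisons. With library weights it called 50 for HET anti-PD1, 60 for HET anti-CD40 and 407 for the HET combination, each against HET IgG, and 23 for the HET against the WT combination; there Casp1 had an adjusted p of 0.0441. The weights did not reach their numerical tolerance, and the cause of the added calls was not tested. Leaving out 1 library at a time gave 0 to 1 genes for HET anti-PD1 (1 without HET anti-PD1 replicate 2), 0 to 1 for HET anti-CD40 and 0 to 6 for the HET combination (both highest without HET IgG replicate 4). Without that control, treatment and L number cannot be told apart in the HET combination. Of 2954 values of the 10 genes under all alternatives, 97 moved by at least 1 SD, 221 took the other sign and 12 had an adjusted p under 0.05. L number as a covariate moved 45 of 130 values by that much, the most of any setting. With the replicate number as a block, limma called 0 genes in every comparison. Same-numbered libraries correlated between -0.79 and 0.79, and no comparison had every pair above 0.1. With 3 or 4 pairs per comparison, centred on group means, this cannot decide whether the numbers pair the libraries. The settings with the myeloid markers, within an L number and without the keratinocyte-rich libraries were chosen after seeing the data. Nlrp3 and Aim2 had the fewest reads, 675 and 664 in all, and each had a library without a read.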
